A study of Mus musculus with 43 samples.

Results

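The tRNA-Lys fragments are the small RNAs cut from the cytoplasmic tRNAs that carry lysine. Their members were every tRNA fragment (tRF) that the study counted for a tRNA-Lys isodecoder, that is, for 1 of the tRNA sequences that share an anticodon. Each isodecoder had a tRF_5′ count, a tRF_3′ count and a tRF_other count for fragments that reach neither end. The table of epididymis tissue listed 51 of these among 4890 RNAs, the table of epididymal fluid 48 among 3178 and the table of sperm 51 among 4323. They came from 12 isodecoders with the anticodon CTT in each table, and from 5, 4 and 5 isodecoders with TTT.

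The 43 libraries came from FVB mice of 8 to 12 weeks, either WT or KO. KO mice carried a CRISPR/Cas9 deletion of the cluster Rnase9-12, genes of the RNase A family that are expressed in the epididymis, and WT mice lacked this deletion. Tissue of caput, corpus and cauda epididymis was sequenced by ARM-seq in 3 WT and 3 KO libraries per segment, except for 2 KO libraries of the corpus. Fluid of the same segments, freed of sperm and vesicles, was sequenced by OTTR-seq in 3 WT and 3 KO libraries each, and cauda sperm in 4 WT and 4 KO libraries. Each fluid or sperm library pooled RNA of 3 mice. Rnase9-12 transcripts were not among the counted RNAs, so the genotype labels were not checked against the data. The titles place 7 libraries in the caput whose section label reads cauda, namely all 6 of caput fluid and WT caput epididymis library 3. They were grouped by title, so each comparison with caput fluid rests on the titles. Each comparison with WT caput epididymis rests in part on the title of its library 3.

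tRNA-Lys decodes the lysine codons: the anticodon CTT pairs with AAG and TTT with AAA. A single cut in a tRNA, as in the anticodon loop, leaves a 5′ part and a 3′ part, whereas several cuts in the same tRNA also leave internal pieces. Enzymes of the RNase A family cleave single-stranded RNA and leave a 3′ phosphate or cyclic phosphate. The RNA was treated with polynucleotide kinase, which removes these ends, before the libraries were made. The proteins of the deleted genes lack the family's catalytic residues and are predicted to be inactive. In the study, their recombinant forms showed no cleavage of tRNA in vitro, and KO fluid showed no significant loss of RNase activity. Sperm leave the testis with few tRNA fragments and acquire many during their passage along the epididymis.

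RefSeq annotated 26 nuclear tRNA-Lys genes on GRCm38.p6, 24 of them with CTT and 2 with TTT. Each was 73 bases long, 5 lay inside another gene and 0 of the 26 overlapped an exon. Both of these TTT genes were on chromosome 13, at chr13:21907940-21908012 and chr13:21971788-21971860. The counts rest on tRNA sequences from gtRNAdb instead, with 5 TTT isodecoders in tissue and sperm. RefSeq therefore does not list every tRNA-Lys gene that was counted. The mitochondrial genome encodes a further tRNA-Lys, mt-Tk, which is no member and is shown because its counts stand beside the members below. Its gene is on the plus strand at chrM:7700-7764 (GRCm38), and its 65 bases are given 5′ to 3′ with the anticodon TTT in capitals.
mt-Tk: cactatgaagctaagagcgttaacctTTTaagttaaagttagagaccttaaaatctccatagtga

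Tissue libraries held 30142156 to 249732714 counts in total, fluid libraries 1948718 to 12320922 and sperm libraries 1134840 to 62128314. The tRNA-Lys fragments held 8358 to 566234, 23350 to 220456 and 2781 to 124382 of them. KO corpus fluid libraries (1948718 to 3373869) were shallower than those of WT corpus fluid (3989262 to 10172577). In tissue, library 3 of every group that had one held the highest tRNA-Lys-CTT tRF_5′ level of its group. Epithelial microRNAs (the Mir200 and Mir141 genes) were detected in each kind of library, 5 of 5. Levels are given as TMM-scaled CPM, that is, as counts relative to the size of the library. An RNA counts as changed where edgeR's quasi-likelihood test gave an adjusted p below 0.05 and an absolute log2 fold change above 1. In bulk samples, fewer cells of a type and less RNA per cell cannot be told apart.

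The same isodecoder of each anticodon was counted most throughout. tRNA-Lys-CTT-3 was the most counted CTT isodecoder and tRNA-Lys-TTT-1 the most counted TTT isodecoder for every fragment type in tissue, fluid and sperm. In fluid, tRNA-Lys-CTT-3 held 59.5% of the CTT tRF_5′ counts and 78.7% of the CTT tRF_3′ counts. For TTT tRF_5′ and tRF_3′ in fluid, tRNA-Lys-TTT-1 held 95.7% and 99.5%. The tRF_other counts were spread more widely, with 23.3% on tRNA-Lys-CTT-3 and 31.4% on tRNA-Lys-TTT-1.

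A read that matches several isodecoders equally was counted on each of them. In tissue, tRNA-Lys-TTT-1 tRF_other held 86041 counts and tRNA-Lys-TTT-2 tRF_other 86040. In fluid the pair tRNA-Lys-TTT-3 and tRNA-Lys-TTT-5 held 12577 and 12584 tRF_other counts. Isodecoders are therefore not separate measurements of a condition. For this reason the counts were also summed by anticodon and fragment type, and these 6 sums were tested as features of their own. A sum still counts a shared read once for every isodecoder it matches. Its level, and its ratio to the sum of another fragment type, therefore depend on how many isodecoders share reads. Of the listed members, 41 in tissue, 30 in fluid and 25 in sperm passed the filter on low counts, while 3, 7 and 8 had 0 counts in every library of their table.

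The make-up of the fragments differed between tissue, fluid and sperm. In WT caput epididymis tissue 13.7% ± 7.93 (SD, n = 3) of the CTT fragment counts were tRF_5′, 22.9% ± 12.3 were tRF_3′ and 63.4% ± 20.1 were tRF_other. In WT caput fluid the same shares were 43.5% ± 11.9, 49.3% ± 11.5 and 7.21% ± 2.26 (n = 3). WT sperm held 8.93% ± 4.27, 7.66% ± 3.67 and 83.4% ± 6.79 (n = 4). Internal fragments made up most of the CTT counts in 0 of 18 fluid, 12 of 17 tissue and 8 of 8 sperm libraries, and most of the TTT counts in 0, 7 and 6 of them. For CTT, the tissue exceptions were library 3 of every group that had one. The tRF_other share was 40.1% to 44.9% there and 52.3% to 79.4% in tissue libraries 1 and 2. These shares count a read once for every isodecoder it matches, and so depend on how many isodecoders share it. From tRNA-Lys-CTT-3 alone, tRF_other made up 50.7% ± 20.8 of the counts in WT caput epididymis, 2.37% ± 0.602 in WT caput fluid and 73.8% ± 12.1 in WT sperm. Tissue was sequenced with another method than fluid and sperm, and the levels were not compared across the 3 tables.

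**Figure D1:**
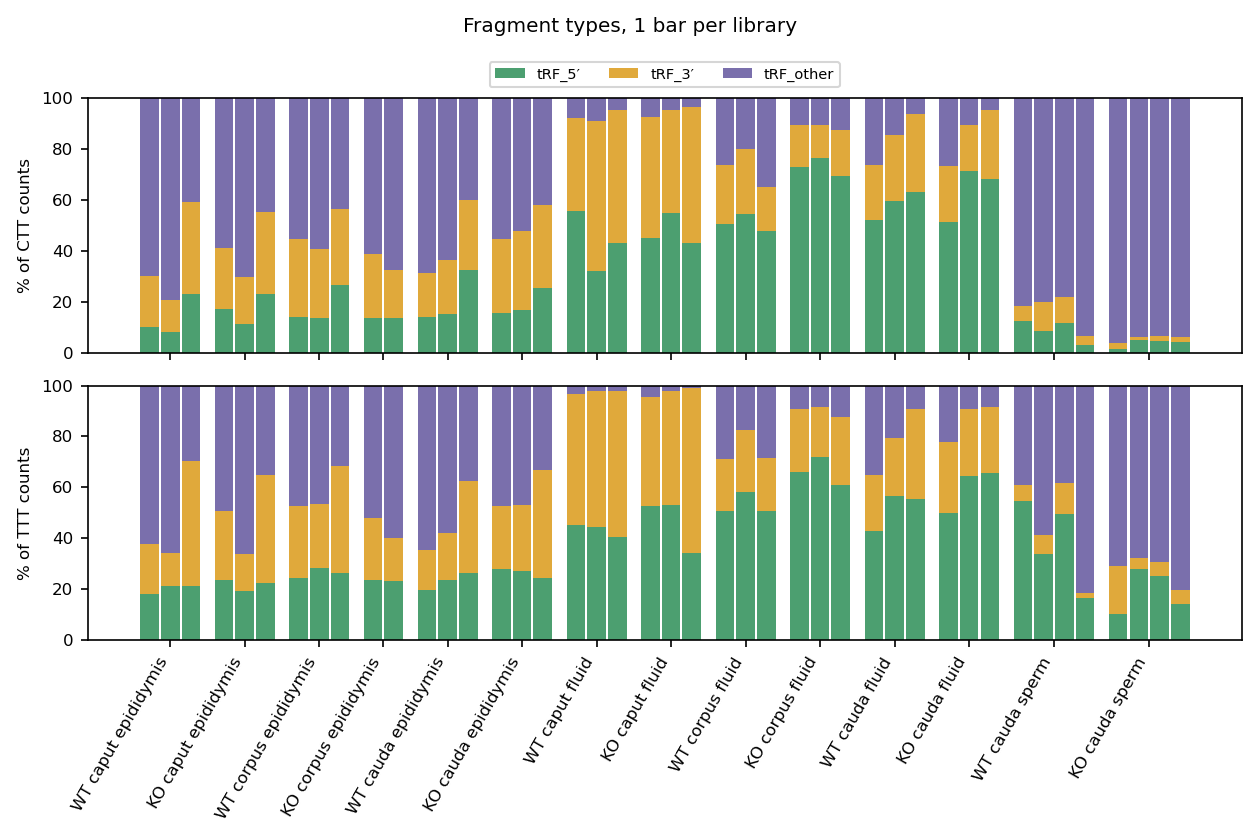
Percent of tRNA-Lys fragment counts that were tRF_5′, tRF_3′ or tRF_other, for CTT and TTT, in each library of tissue, fluid and sperm. In WT corpus fluid 27.1% of CTT counts were tRF_other on average, against 11.4% in KO corpus fluid.

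TTT fragments in sperm held a larger part with the 5′ end than CTT fragments did. In WT sperm 38.7% ± 17.2 (SD, n = 4) of TTT counts were tRF_5′ and 54.3% ± 20.4 were tRF_other. In KO sperm these shares were 19.5% ± 8.62 and 71.9% ± 5.63 (n = 4). The order turned in WT with tRNA-Lys-TTT-1 alone, which held 51.96% ± 16.97 tRF_5′ and 37.1% ± 20.4 tRF_other in WT and 32.4% ± 11.8 and 50.9% ± 6.15 in KO. For CTT, KO sperm held 3.70% ± 1.65 tRF_5′, 1.95% ± 0.556 tRF_3′ and 94.4% ± 1.22 tRF_other.

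The share of tRNA-Lys among all tRF counts did not pass a test between WT and KO. In tissue it took 4.63% ± 0.347 (SD, n = 3) of them in WT caput, 3.99% ± 0.512 in WT corpus and 4.33% ± 0.259 in WT cauda. In fluid the WT share was 2.53% ± 0.0842 in caput, 1.52% ± 0.234 in corpus and 1.54% ± 0.359 in cauda (n = 3 each). The WT corpus and cauda fluid libraries all lay below the WT caput fluid libraries, a difference that is given without a test.

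Between genotypes the smallest p of the 2-sided exact permutation test on these shares was 0.2, in corpus epididymis and in caput fluid, with an adjusted p of 0.7 over 7 comparisons. Sperm held 4.84% ± 1.94 in WT and 4.13% ± 0.762 in KO (n = 4 each). With 3 libraries against 3 this test cannot go below 0.1. With the 2 KO libraries of corpus epididymis it cannot go below 0.2, and there both KO shares lay below all WT shares (3.44% ± 0.0275, n = 2, against WT).

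Along the WT epididymis, fluid lost tRF_3′ and gained tRF_other of both anticodons between caput and corpus. TTT tRF_3′ stood at 5164, 4398 and 6306 CPM in the 3 WT caput fluid libraries, at 872, 668 and 675 CPM in corpus and at 656, 833 and 1623 CPM in cauda. Every caput value was above every corpus and cauda value. The fall from caput was by 2.84 on the log2 scale in corpus (SE 0.43, adjusted p = 0.000761, edgeR) and by 2.35 in cauda (SE 0.42, adjusted p = 0.000850, edgeR). Among the 1606 features of the table summed by anticodon and fragment type, 9.28% fell and 6.6% rose in corpus, and 14.9% fell and 8.41% rose in cauda. Cell type microRNAs moved with the segment in these WT libraries: the epithelial sum was 103 to 182 CPM in caput, 27.1 to 62.5 in corpus and 75.1 to 132 in cauda, the germ cell sum 2 to 3.50, 3.58 to 9.06 and 15.1 to 31.6, and the leukocyte sum 6.44 to 9.98, 12.99 to 17.5 and 19.9 to 39.7. Muscle microRNAs ran from 78.01 to 142 CPM in caput, 94.5 to 171 in corpus and 149.9 to 330.3 in cauda, and red blood cell microRNAs from 23.6 to 25.01, 18.96 to 50.2 and 39.96 to 60.97. Their part in the segment differences was not tested.

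CTT tRF_3′ went the same way, from 4493, 6996 and 6472 CPM in caput to 2144, 1690 and 1212 CPM in corpus and 1865, 2856 and 3875 CPM in cauda. The groups did not overlap. It fell by 1.83 in corpus (SE 0.39, adjusted p = 0.00457) and by 1.06 in cauda (SE 0.38, adjusted p = 0.0480, edgeR), and the cauda call was lost with DESeq2, with TMM factors from RNAs not derived from tRNA or rRNA, and without any single library (adjusted p from 0.0980 to 0.248). The corpus call was lost with the latter scaling (adjusted p = 0.0566) and without WT corpus library 3 (adjusted p = 0.0542).

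Among the 5′ fragments, those of TTT fell and those of CTT did not pass. TTT tRF_5′ fell from 4550, 3663 and 4421 CPM in WT caput fluid to 2180, 1579 and 1647 CPM in corpus and 1281, 2058 and 2575 CPM in cauda, without overlap. Its log2 change was -1.22 (SE 0.32, adjusted p = 0.0135) in corpus and -1.10 (SE 0.32, adjusted p = 0.0175, edgeR) in cauda. CTT tRF_5′ had 6837, 3792 and 5280 CPM in caput, 4612, 3583 and 3364 CPM in corpus and 4560, 6628 and 8058 CPM in cauda. Here the libraries overlapped, and the log2 change was -0.46 (SE 0.34, adjusted p = 0.413) in corpus and 0.27 (SE 0.34, adjusted p = 0.588, edgeR) in cauda. The ratio of TTT to CTT tRF_5′ was lower in each corpus and cauda library than in each caput library, by 0.80 and 1.42 on the log2 scale, and the 2-sided exact permutation test gave p = 0.1 for both, the smallest that 3 against 3 allows (adjusted p = 0.393 over 55 ratios). The TTT calls were lost with TMM factors from RNAs not derived from tRNA or rRNA (-0.67 in both segments) and without any of 4 single libraries in each segment (adjusted p up to 0.116 in corpus and 0.107 in cauda).

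Internal fragments moved in the other direction. TTT tRF_other had 316, 176 and 222 CPM in WT caput fluid, 1240, 473 and 928 CPM in corpus and 1052, 747 and 431 CPM in cauda, with every caput value the lower. It rose by 1.88 in corpus (SE 0.43, adjusted p = 0.00531) and by 1.64 in cauda (SE 0.43, adjusted p = 0.00855, edgeR), and the cauda call was lost without WT caput library 2 or WT cauda library 1 (adjusted p = 0.0502 and 0.0505). CTT tRF_other rose from 959, 1083 and 581 CPM to 2408, 1333 and 2461 CPM in corpus, by 1.24 (SE 0.41, adjusted p = 0.0432, edgeR), a call that was lost without any of 5 single libraries (adjusted p up to 0.142). In cauda it held 2313, 1631 and 836 CPM, and the change of 0.87 (SE 0.41, adjusted p = 0.119, edgeR) did not pass.

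**Figure D2:**
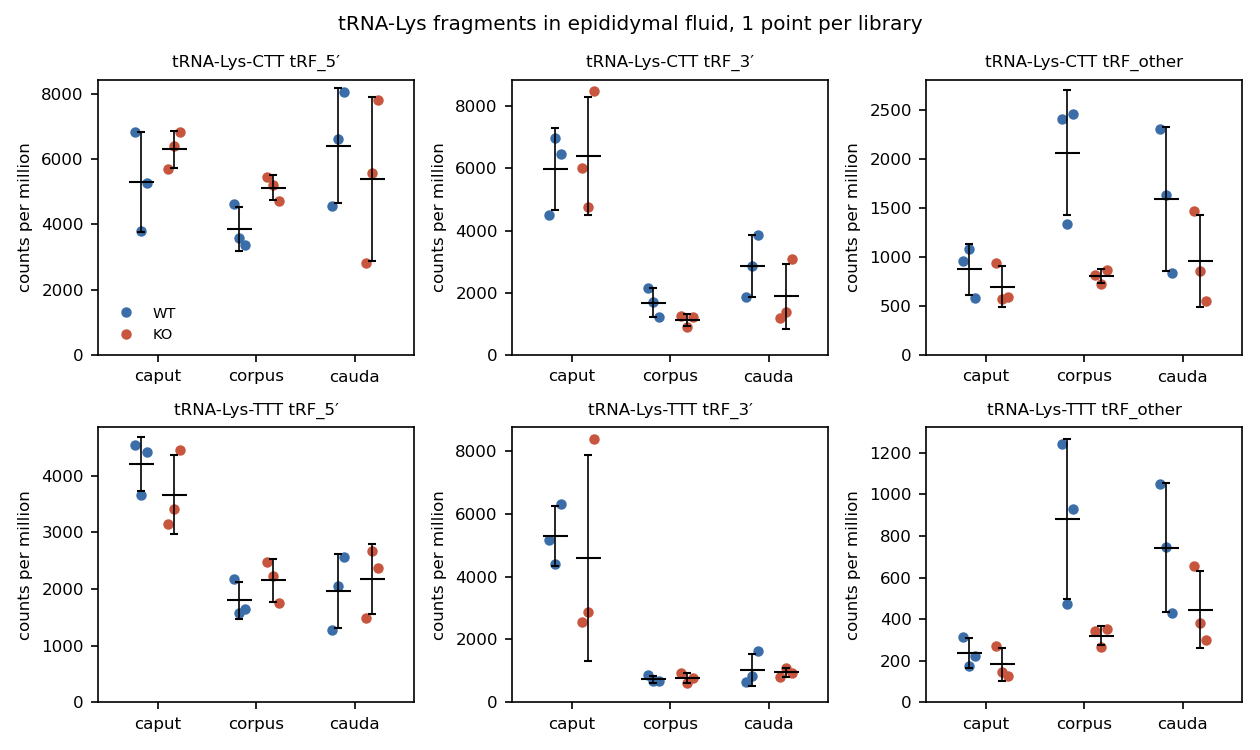
CPM of the 6 tRNA-Lys sums in each fluid library by segment and genotype, with points for libraries and bars for the mean ± SD. TTT tRF_3′ fell from 4398 to 6306 CPM in WT caput to 668 to 872 CPM in WT corpus, and tRF_other of both anticodons was lower in KO than in WT corpus fluid.

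Among single members, 7 of 30 fell and 10 of 30 rose in WT corpus against WT caput fluid, where 9.54% of all 2023 RNAs tested fell and 8.21% rose. By fragment type, 6 of the 8 tRF_3′ fell and 9 of the 16 tRF_other rose. In WT cauda against caput fluid 6 of 30 members fell and 5 rose, against 15.4% and 9.69% of all RNAs. The smallest p in both belonged to tRNA-Lys-TTT-1 tRF_3′, which carries nearly all TTT tRF_3′ counts. It went from 5142, 4379 and 6278 CPM in caput to 867, 664 and 671 CPM in corpus, without overlap, and the log2 change was -2.84 (SE 0.44, adjusted p = 0.00114, edgeR).

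tRNA-Lys-TTT-5 tRF_other, whose reads are nearly all shared with tRNA-Lys-TTT-3, rose from 49.1, 19.2 and 29.3 CPM to 223, 81.8 and 187 CPM in WT corpus fluid. The groups did not overlap, and the log2 change was 2.33 (SE 0.52, adjusted p = 0.00483, edgeR). tRNA-Lys-CTT-3 tRF_3′ fell from 3825, 5060 and 5050 CPM to 1752, 1257 and 929 CPM, by 1.82 (SE 0.40, adjusted p = 0.00483, edgeR), again without overlap.

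In KO fluid, which has its own caput libraries, 9 of 30 members fell and 0 rose in corpus against caput (7.86% and 11.5% of all RNAs), and 8 fell and 2 rose in cauda (14.5% and 11.5%). In the summed table, 5.04% of features fell and 12.4% rose in KO corpus. TTT tRF_3′ fell by 2.58 (SE 0.43, adjusted p = 0.000717) and CTT tRF_3′ by 2.53 (SE 0.40, adjusted p = 0.000717, edgeR) there. The tRF_other sums of KO corpus changed by 0.81 for TTT (SE 0.42, adjusted p = 0.211) and by 0.20 for CTT (SE 0.40, adjusted p = 0.777, edgeR), neither of which passed.

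In corpus fluid, internal tRNA-Lys fragments of both anticodons were lower in KO than in WT. TTT tRF_other had 1240, 473 and 928 CPM in WT and 343, 267 and 354 CPM in KO, and CTT tRF_other had 2408, 1333 and 2461 CPM in WT and 814, 726 and 870 CPM in KO. All KO values lay below all WT values in both. The log2 change was -1.45 for TTT (SE 0.43, adjusted p = 0.0206) and -1.36 for CTT (SE 0.41, adjusted p = 0.0240, edgeR), where 3.11% of the features of the summed table fell and 17.9% rose. Both were lost with library size as the only scaling (adjusted p = 0.0577 for TTT and 0.0635 for CTT). They were also lost without any of several single libraries, namely WT 1, KO 1 or KO 2 for TTT (adjusted p up to 0.107), and these, WT 3 or KO 3 for CTT (adjusted p up to 0.0782). With TMM factors from RNAs not derived from tRNA or rRNA the changes were -2.37 and -2.25 (adjusted p = 0.00232 each).

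The sums of the fragments with an end of the tRNA did not pass in corpus fluid. CTT tRF_5′ had 4612, 3583 and 3364 CPM in WT and 5455, 5214 and 4711 CPM in KO, with every KO library above every WT library and a log2 change of 0.41 (SE 0.34, adjusted p = 0.435, edgeR). TTT tRF_5′ changed by 0.26 (SE 0.32, adjusted p = 0.629) and TTT tRF_3′ by 0.06 (SE 0.40, adjusted p = 0.946, edgeR), with overlap. All 3 of these changes were below 0 with the scaling on RNAs not derived from tRNA or rRNA. CTT tRF_3′ had 2144, 1690 and 1212 CPM in WT and 1238, 890 and 1215 CPM in KO, a change of -0.59 (SE 0.38, adjusted p = 0.285, edgeR) that was -1.51 (adjusted p = 0.0211) with that scaling.

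**Figure D3:**
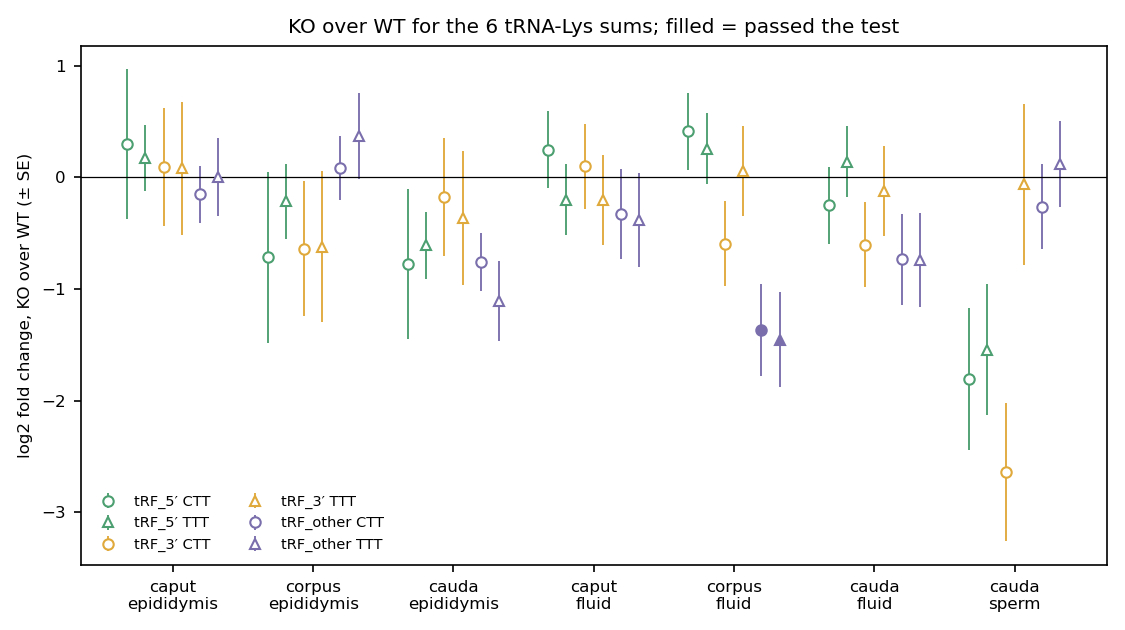
Log2 fold change, KO against WT, of the 6 tRNA-Lys sums in each segment of tissue and fluid and in sperm, with bars for ± SE. Filled points passed the test, which were TTT tRF_other (-1.45) and CTT tRF_other (-1.36) in corpus fluid.

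Member by member, 10 of 30 fell and 0 rose in KO corpus fluid, where 6.23% of all RNAs tested fell and 13.4% rose. 9 of these 10 were tRF_other and 1 was a tRF_5′. In 14 of the 30, each KO value was under each WT value, as was so for 15.7% of all RNAs. The median log2 change was -1.07 over the 30 members, -0.57 over 531 other tRFs tested and 0.10 over all RNAs. Other tRFs passed in the same direction too, 96 of the 531.

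The member with the smallest p was tRNA-Lys-CTT-14 tRF_5′, a minor isodecoder. Its values were 57.6, 8.94 and 24 CPM in WT and 6.01, 3.78 and 4.56 CPM in KO. The groups did not overlap, and the log2 change was -2.66 (SE 0.57, adjusted p = 0.00240, edgeR). In caput fluid it had 12.4, 7 and 6.73 CPM in WT and 4.42, 2.88 and 3.79 CPM in KO, a change of -1.24 that did not pass (SE 0.53, adjusted p = 0.394, edgeR).

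tRNA-Lys-CTT-8 tRF_other had 425, 220 and 437 CPM in WT corpus fluid and 107, 102 and 139 CPM in KO, and fell by 1.64 (SE 0.47, adjusted p = 0.0199, edgeR). tRNA-Lys-TTT-1 tRF_other had 397, 155 and 277 CPM in WT and 112, 84.5 and 106 CPM in KO, and fell by 1.45 (SE 0.42, adjusted p = 0.0207, edgeR), as did tRNA-Lys-TTT-2 tRF_other, which shares its reads. In none of these did the groups overlap. tRNA-Lys-CTT-5 tRF_other, which shares most reads with tRNA-Lys-CTT-8, fell by 1.57 (SE 0.48, adjusted p = 0.0247), and tRNA-Lys-CTT-3 tRF_other by 1.26 (SE 0.42, adjusted p = 0.0407, edgeR). The other 4 called members were tRF_other of tRNA-Lys-CTT-13, tRNA-Lys-CTT-1, tRNA-Lys-TTT-3 and tRNA-Lys-TTT-5.

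The number of members that fell depended on single libraries. It was 1 without WT library 1, without KO library 1 or without KO library 2, 2 without KO library 3, 4 without WT library 3 and 11 without WT library 2. It was 1 with library size as the only scaling and 18 with TMM factors from RNAs not derived from tRNA or rRNA. With the latter scaling the median log2 change was -1.98 over the members, -1.48 over other tRFs and -0.78 over all RNAs. The share of all RNAs called in these fits was not recorded, so their counts of members have no background beside them. Other features moved with genotype in the same libraries: the summed level of the 5 epithelial microRNAs was 87.5 to 134 CPM in KO and 27.1 to 62.5 CPM in WT, and that of 3 germ cell microRNAs 12.8 to 15.4 CPM in KO and 3.58 to 9.06 CPM in WT. Muscle microRNAs (4 of 4 detected) ran from 132 to 289 CPM in KO and from 94.5 to 171 CPM in WT, leukocyte microRNAs (2 of 2) from 16.8 to 70.01 and from 12.99 to 17.5, and red blood cell microRNAs (2 of 2) from 18.4 to 120.1 and from 18.96 to 50.2. Their part in the result, and that of depth, was not tested.

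Ratios within a library do not depend on the scaling between libraries. In WT corpus fluid CTT tRF_other over tRF_5′ was 0.522, 0.372 and 0.732, and in KO 0.149, 0.139 and 0.185. For TTT it was 0.569, 0.3 and 0.563 in WT and 0.138, 0.120 and 0.202 in KO. All KO ratios lay below all WT ratios. Over tRF_3′, the tRF_other ratio was 1.42, 0.708 and 1.37 in WT and 0.372, 0.437 and 0.457 in KO for TTT, again without overlap, but 1.12, 0.789 and 2.03 in WT and 0.657, 0.816 and 0.716 in KO for CTT, with overlap. These ratios, which were added after the levels had been seen, are given without a test. The ratio of CTT tRF_5′ to tRF_3′ was 2.15, 2.12 and 2.78 in WT and 4.41, 5.86 and 3.88 in KO, without overlap, and the 2-sided exact permutation test gave p = 0.1, the smallest that 3 against 3 allows (adjusted p = 0.393 over 55 ratios).

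Caput and cauda fluid held 0 called members of 30 in KO against WT, and 0 of all 2023 RNAs passed there (edgeR). The smallest adjusted p of a sum was 0.809 in caput and 0.606 in cauda (edgeR). At an unadjusted p below 0.05, caput fluid had 1 member lower and 1 higher (5.14% and 5.44% of all RNAs) and cauda fluid 1 lower (2.82%). In caput fluid, tRNA-Lys-CTT-6 tRF_other had 2.79, 1.57 and 0.898 CPM in WT and 7.06, 3.70 and 4.06 CPM in KO, without overlap, a change of 1.48 that did not pass (SE 0.66, adjusted p = 0.409, edgeR).

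In cauda fluid the tRF_other sums pointed the way they did in corpus fluid, without passing. TTT tRF_other had 1052, 747 and 431 CPM in WT and 654, 382 and 299 CPM in KO, and CTT tRF_other 2313, 1631 and 836 CPM in WT and 1470, 853 and 551 CPM in KO. The groups overlapped in both, and both log2 changes had an adjusted p of 0.606 (-0.74, SE 0.42 for TTT and -0.73, SE 0.41 for CTT, edgeR). tRNA-Lys-TTT-3 tRF_3′, the member with the smallest p, had 3.59, 2.82 and 5.27 CPM in WT and 0.773, 2.97 and 1.5 CPM in KO (-1.17, SE 0.55, adjusted p = 0.514, edgeR), and tRNA-Lys-TTT-3 tRF_other changed by -0.97 (SE 0.50, adjusted p = 0.514, edgeR). The KO effect in corpus fluid minus that in cauda fluid passed for 0 of 30 members, against 2.87% of all RNAs lower and 4.5% higher, with 1 member lower at an unadjusted p below 0.05 (10.1%, edgeR). For the TTT tRF_other sum this difference was -0.72 (SE 0.59, adjusted p = 0.562), and for CTT tRF_other -0.63 (SE 0.57, adjusted p = 0.596, edgeR). The effect in corpus fluid was therefore not shown to differ from that in cauda fluid.

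In epididymis tissue the KO against WT comparison had 1 called member. In the cauda, tRNA-Lys-CTT-14 tRF_other had 2.42, 2.06 and 1.66 CPM in WT and 0.593, 0.734 and 0.678 CPM in KO. The groups did not overlap, and it fell by 1.60 (SE 0.29, adjusted p = 0.00832, edgeR). It was 1 member of 41, where 0.831% of 3488 RNAs fell and 0.0287% rose. With the replicate number as a block, which pairs these samples, 3 members passed, and in a fit of the 2 groups alone 0 did.

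The tRF_other sums of the cauda epididymis had KO values below WT that did not pass. CTT tRF_other had 469, 436 and 510 CPM in WT and 241, 238 and 356 CPM in KO, and TTT tRF_other 127, 93.4 and 94.0 CPM in WT and 55.3, 39.0 and 51.7 CPM in KO. Neither pair of groups overlapped. The log2 changes were -0.76 (SE 0.26, adjusted p = 0.206) and -1.11 (SE 0.35, adjusted p = 0.195, edgeR). For TTT tRF_other the value with the replicate block was -1.08 (adjusted p = 0.0348, edgeR), which passed.

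Over the 41 members tested in cauda epididymis, 39 had a negative log2 change (43.9% of all RNAs did), and 17 were lower at an unadjusted p below 0.05, against 7.37% of all RNAs. The median was -0.74 over the members, -0.55 over 565 other tRFs and 0.12 over all RNAs. Each KO value was under each WT value for 19 of the 41 (10.1% of all RNAs). The groups of the fragments with an end overlapped: CTT tRF_5′ had 94.7, 104 and 414 CPM in WT and 67.8, 76.8 and 213 CPM in KO, and CTT tRF_3′ 118, 143 and 349 CPM in WT and 125, 141 and 273 CPM in KO. In both genotypes library 3 stood high. Within the pairs of the same number, CTT tRF_5′ was lower in KO in 3 of 3, as was TTT tRF_5′, and with the replicate block the changes were -0.64 (adjusted p = 0.110) and -0.59 (adjusted p = 0.177, edgeR), which did not pass.

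**Figure D4:**
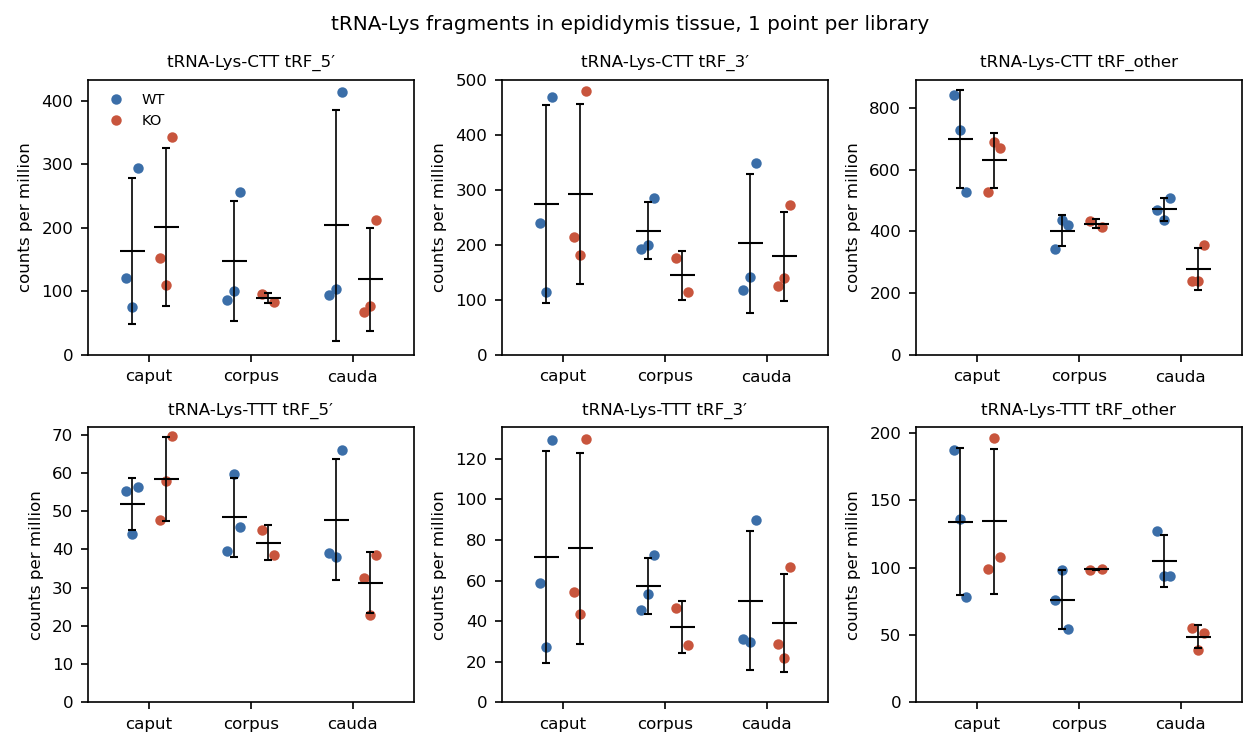
CPM of the 6 tRNA-Lys sums in each tissue library by segment and genotype, with points for libraries and bars for the mean ± SD. In cauda, tRF_other of CTT was 436 to 510 CPM in WT and 238 to 356 CPM in KO.

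Caput and corpus epididymis had 0 called members of 41, and 0 of all 3488 RNAs passed in either (edgeR). At an unadjusted p below 0.05, 0 members were lower or higher in caput (0.659% and 0.315% of all RNAs) and in corpus (7.22% and 0.774%). The smallest p in caput belonged to tRNA-Lys-TTT-2 tRF_5′, at 8.80, 6.13 and 11.6 CPM in WT and 9.22, 12.7 and 14.4 CPM in KO (0.45, SE 0.41, adjusted p = 0.99964, edgeR), followed by tRNA-Lys-CTT-7 tRF_other at -0.29 (SE 0.30, adjusted p = 0.99964, edgeR). In corpus it belonged to tRNA-Lys-CTT-6 tRF_3′ at -2.61 (SE 1.45, adjusted p = 0.663), a nearly uncounted row of at most 0.124 CPM, and then to tRNA-Lys-TTT-5 tRF_3′ at -1.29 (SE 0.83, adjusted p = 0.717, edgeR).

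The TTT tRF_other sum of corpus epididymis stood at 75.9, 98.4 and 54.6 CPM in WT and at 98.5 and 99.0 CPM in KO, so that both KO values were above all WT values (0.37, SE 0.39, adjusted p = 0.844, edgeR). WT library 2 nearly reached them, and the lowest WT value was that of library 3, which KO corpus lacked. The KO effect in cauda minus that in caput epididymis passed for 0 of 41 members and 0 of all RNAs (edgeR), with 5 members lower at an unadjusted p below 0.05 (3.67% of all RNAs). For TTT tRF_other this difference was -1.11 (SE 0.50, adjusted p = 0.998, edgeR).

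Along the tissue, members fell from caput to cauda in KO. Muscle microRNAs stood higher in cauda, at 24.1 to 40.5 CPM in KO caput and 109 to 142 in KO cauda (21 to 41.2 and 109.7 to 219 in WT), and epithelial ones stood at 11.4 to 22.4 and 7.79 to 13.1 in KO. Their part in the result was not tested. In KO cauda against caput epididymis 18 of 41 members fell, against 8.6% of all RNAs, and 0 rose (17.1%). 14 of the 18 were tRF_other, of which 12 CTT and 5 TTT rows were among the 41 tested. Other tRFs fell too: the median log2 change was -1.12 over the members, -0.90 over 565 other tRFs and 0.03 over all RNAs. CTT tRF_other had 528, 691 and 672 CPM in KO caput and 241, 238 and 356 CPM in KO cauda, without overlap, and fell by 1.18 (SE 0.26, adjusted p = 0.00254, edgeR). TTT tRF_other fell by 1.47 (SE 0.36, adjusted p = 0.00552, edgeR). In the summed table, 4.58% of features fell and 19.6% rose. Without KO cauda library 2 the number of members that fell was 11. tRNA-Lys-CTT-5 tRF_other, which led this comparison, had 29.1, 44.2 and 36.2 CPM in KO caput and 13.1, 13.5 and 17.5 CPM in KO cauda, and fell by 1.31 (SE 0.27, adjusted p = 0.00168, edgeR).

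In WT cauda against caput epididymis 1 of 41 members rose and 0 fell, against 15.7% and 7.28% of all RNAs. This was tRNA-Lys-CTT-14 tRF_other, at 1.12, 1.05 and 0.785 CPM in WT caput, a rise of 1.05 without overlap (SE 0.27, adjusted p = 0.00892, edgeR). With the replicate block 3 members passed, and 3 fell without WT caput library 3, the tissue library whose section label reads cauda. The WT values of CTT tRF_other were 843, 730 and 528 CPM in caput and 469, 436 and 510 CPM in cauda, a change of -0.57 (SE 0.26, adjusted p = 0.125, edgeR). The difference between the genotypes in this change is the KO effect of cauda minus caput given above, which did not pass.

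WT corpus against caput epididymis had 0 called members, where 2.81% of all RNAs fell and 9% rose. All 41 log2 changes were below 0 (46.2% of all RNAs), and 14 members were lower at an unadjusted p below 0.05 (6.88%). tRNA-Lys-CTT-13 tRF_other had 223, 173 and 128 CPM in WT caput and 85.1, 104 and 97.4 CPM in corpus, and tRNA-Lys-CTT-1 tRF_other 2.18, 2.26 and 1.45 CPM and 0.896, 1.16 and 0.978 CPM. Neither pair of groups overlapped. Their changes of -0.87 (SE 0.26, adjusted p = 0.0378) and -0.95 (SE 0.30, adjusted p = 0.0459, edgeR) had an adjusted p below 0.05 but not the fold. With the replicate block 1 member passed, and 8 passed without WT caput library 3, whose section label reads cauda. KO corpus against caput epididymis had 0 called members, where 0.143% of all RNAs fell and 0.487% rose, with 3 members lower at an unadjusted p below 0.05 (4.79%, edgeR).

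In sperm 0 of 25 members passed in KO against WT, and 0 of all 2480 RNAs did (edgeR). At an unadjusted p below 0.05, 10 of the 25 were lower, against 9.48% of all RNAs, and 0 were higher (8.02%). 20 of 25 log2 changes were negative (50.2% of all RNAs), with a median of -1.19 against -0.66 over other tRFs. DESeq2 called 8 members, and edgeR called 14 without WT library 4. The share of all RNAs that passed in these fits was not recorded, so neither count can be set against the whole table. The study itself, which used DESeq2, reported numerous tRFs as significantly lower in KO sperm. In simulated sperm data the edgeR fit recovered 0% of 2-fold changes and 45.4% of 4-fold changes at an adjusted p below 0.05. Germ cell microRNAs (3 of 3 detected) summed to 17.9 to 47.01 CPM in WT and 30.2 to 43.2 CPM in KO. Epithelial microRNAs ran from 6.24 to 23.8 CPM in WT and 16.3 to 23.3 in KO, and muscle ones from 4.23 to 19.2 and 6.86 to 18.8. Leukocyte microRNAs ran from 2.64 to 8.32 CPM in WT and 4.80 to 10.2 in KO, and red blood cell ones from 2.64 to 7.80 and 1.63 to 55.4. The part of these microRNAs' cells in the result was not tested. 4 of the 8 libraries, WT 2 to 4 and KO 4, were shallow (1134840 to 3618739 total counts). WT library 4 held the lowest WT value of CTT tRF_5′, CTT tRF_3′, TTT tRF_5′ and TTT tRF_3′.

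CTT tRF_3′ had the smallest p of the sperm sums. It stood at 94.7, 310, 144 and 33.2 CPM in WT and at 34.3, 18.8, 23.3 and 16.8 CPM in KO. All KO values lay below WT libraries 1 to 3, and WT library 4 lay inside the KO range. The log2 change was -2.64 (SE 0.62, adjusted p = 0.210, edgeR). With all 8 libraries DESeq2 gave -2.80 (adjusted p = 0.000915), and without WT library 4 edgeR gave -2.89 (adjusted p = 0.00194).

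CTT tRF_5′ had 207, 227, 168 and 29.6 CPM in WT and 17.3, 77, 53.7 and 32.9 CPM in KO, and TTT tRF_5′ 158, 92.8, 126 and 20.6 CPM in WT and 23.1, 53.1, 39.0 and 20.9 CPM in KO. WT libraries 1 to 3 again lay above the KO libraries and WT library 4 among or below them. The log2 changes were -1.80 (SE 0.63) and -1.55 (SE 0.59), each with an adjusted p of 0.255 (edgeR). Without WT library 4 they were -2.07 (adjusted p = 0.0154) and -1.81 (adjusted p = 0.0192, edgeR). With all 8 libraries the tRF_5′ comparisons did not pass, and a p that misses the threshold does not show that the genotypes are alike.

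Internal fragments in sperm did not pass, and for TTT the sign was negative under other scalings. CTT tRF_other had 1354, 2197, 1120 and 882 CPM in WT and 1296, 1464, 1115 and 758 CPM in KO, a change of -0.26 (SE 0.38, adjusted p = 0.815, edgeR). TTT tRF_other had 113, 161, 97.2 and 101 CPM in WT and 160, 128, 106 and 118 CPM in KO (0.12, SE 0.38, adjusted p = 0.915, edgeR). In both, the groups overlapped.

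The most counted CTT tRF_3′ member had the smallest p among the members. tRNA-Lys-CTT-3 tRF_3′ had 48.3, 121, 59.2 and 8.67 CPM in WT sperm and 9.35, 6.83, 7.95 and 5.15 CPM in KO sperm, with WT library 4 inside the KO range. The log2 change was -3.00 (SE 0.66, adjusted p = 0.115, edgeR). tRNA-Lys-CTT-2 tRF_3′ changed by -2.96 (SE 0.67, adjusted p = 0.115, edgeR). The TTT tRF_3′ sum had 18.9, 19.9, 30.6 and 2.53 CPM in WT and 43.4, 8.24, 8.22 and 8.23 CPM in KO (-0.06, SE 0.72, adjusted p = 0.976, edgeR), with KO library 1 the highest of all.

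**Figure D5:**
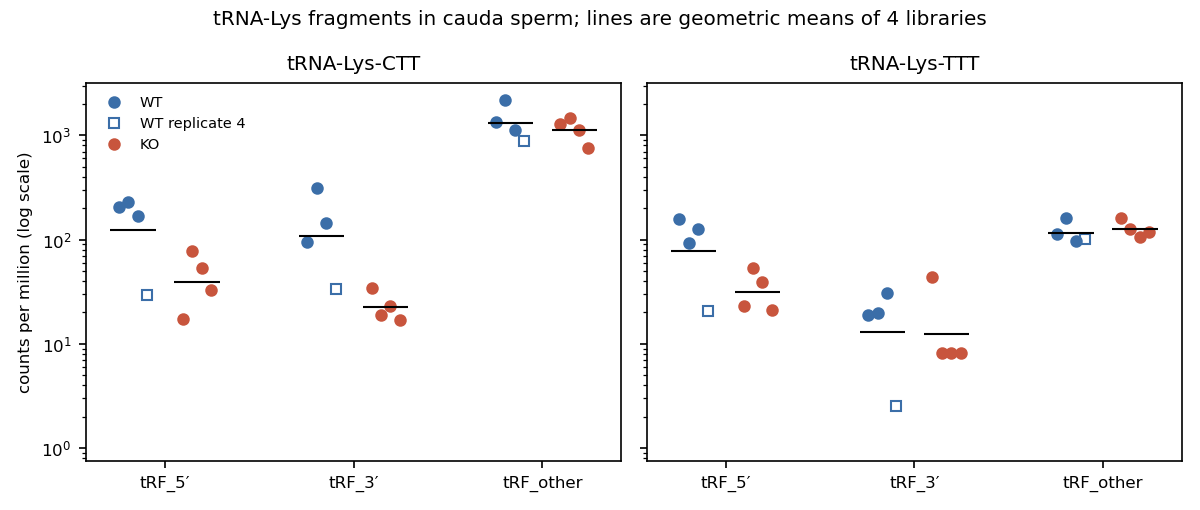
CPM (log axis) of the 6 tRNA-Lys sums in each sperm library, with lines for geometric means and open squares for WT library 4. CTT tRF_3′ was 94.7 to 310 CPM in WT libraries 1 to 3, 33.2 CPM in WT library 4 and 16.8 to 34.3 CPM in KO. Over all 8 libraries its change did not pass (adjusted p = 0.210, edgeR).

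The ratio of TTT to CTT tRF_3′ was higher in every KO sperm library than in every WT one. It was 0.199, 0.0641, 0.212 and 0.0761 in WT and 1.27, 0.439, 0.353 and 0.490 in KO, a difference of 2.22 on the log2 scale. The 2-sided exact permutation test gave p = 0.0286, the smallest that 4 against 4 allows, with an adjusted p of 0.393 over 55 ratios. The level of TTT tRF_3′ in sperm was low, and KO library 1 was the only one above a ratio of 1.

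Full-length tRNA-Lys is no fragment, and 2 such rows were tested in fluid. Full-length tRNA-Lys-CTT-3 had 6.39, 1.75 and 1.65 CPM in WT caput fluid and 42.9, 25.6 and 17.3 CPM in KO caput fluid, and 0.149, 1.88 and 0.403 CPM in WT corpus fluid and 6.01, 9.45 and 9.94 CPM in KO corpus fluid. Both comparisons separated the genotypes. 0 of the 2 rows passed in either, with the smallest adjusted p at 0.153 in caput and 0.0918 in corpus fluid (edgeR). In cauda fluid the values overlapped.

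Mitochondrial mt-tRNA-Lys-TTT, 1 of the 2 rows for the tRNA that mt-Tk encodes, rose along the epididymis tissue. It changed by 3.29 in WT cauda against caput (adjusted p = 0.00144) and by 2.52 in WT corpus (adjusted p = 0.0159, edgeR), all in the summed table, with 2.52, 2.90 and 0.660 CPM in WT cauda. KO cauda had 7.91, 8.80 and 2.88 CPM, which overlapped WT cauda, and the KO against WT change of 1.71 did not pass (adjusted p = 0.235, edgeR). Every count of this row was even, in 17 of 17 tissue libraries. In cauda sperm its values were 9.64, 7.02, 3.17 and 109 CPM in WT and 30.5, 16.9, 24.3 and 41.2 CPM in KO, with WT library 4 the highest. The other row, mt-Tk-201, did not pass against WT caput epididymis. It changed by 1.10 in WT cauda (adjusted p = 0.327) and by 1.84 in WT corpus (adjusted p = 0.0922, edgeR). In the summed table, 547 of 3011 features rose in WT cauda against caput epididymis and 316 in WT corpus.

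Other anticodons had patterns like those of the tRNA-Lys fragments across the 12 group means of tissue and fluid, centred within each table. The closest to CTT tRF_3′ was tRNA-Thr-CGT (Pearson r = 0.96), then tRNA-iMet-CAT (0.95) and tRNA-Ile-AAT (0.94). For CTT tRF_5′ the closest was tRNA-iMet-CAT at 0.79, then tRNA-Gln-TTG at 0.69 and tRNA-Gln-CTG at 0.62. CTT tRF_other was most like tRNA-Sup-TCA at 0.95 and then tRNA-Lys-TTT and tRNA-Arg-TCT at 0.93 each. TTT tRF_5′ was most like tRNA-Arg-TCT at 0.91, TTT tRF_3′ like tRNA-Pro-CGG at 0.96 and TTT tRF_other like tRNA-iMet-CAT at 0.96. These correlations are descriptions over group means that share libraries and depth.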

How the data were processed

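The authors trimmed reads with cutadapt (the submitters' processing notes also list UMI-tools, with no role) and counted small RNAs with a modified tRAX (bowtie2 against mm10, mature tRNAs and rRNA). The deposited tables hold counts per RNA, 1 table each for tissue, fluid and sperm, and a read that matched several isodecoders equally was counted on each. The 7 caput libraries whose section label reads cauda (6 of fluid, 1 of tissue) were grouped by title. Each table was fitted as a whole with edgeR 4.0.16 (R 4.3.3), using TMM scaling, filterByExpr (minimum count 10, minimum total 15), the quasi-likelihood test and Benjamini-Hochberg adjustment over all RNAs (3488, 2023 and 2480 tested), with groups as the only term. Ratios and shares were tested by exact permutation. The scripts were tested on simulated data, where 4-fold changes were recovered at 58.5% in cauda epididymis (3307 RNAs), 58.4% in corpus fluid (1867) and 45.4% in sperm (2347), and 2-fold changes at 0%, 0.552% and 0%. Recovered here means an adjusted p below 0.05 alone, without the fold threshold. Pairing by replicate number was checked by the correlation of deviations from group means, which was above 0.1 for every number in KO against WT cauda epididymis (0.272 to 0.596), in WT cauda and WT corpus against caput epididymis and in KO cauda against caput epididymis. No 2 libraries held identical counts, and replicates differed by more than counting noise (smallest chi-square per degree of freedom 32.6). Where nothing says that libraries came from separate animals, p-values measure only the spread between these samples. Named members were the 6 sums, the most counted isodecoders and, per comparison, up to 6 called members or the 2 with the smallest p. The members, lists and tests were chosen with earlier results of these data known. Mature tRNA-Lys sequences other than mt-Tk were not analysed here.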

Additional observations from a re-analysis of the deposited data

Results flagged for a closer look

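In sperm, 4 values stood far from the other libraries of their group, by a gap test that flags about 1 group in 20 by chance. These were the CTT tRF_5′ level of WT sperm library 4 (29.6 CPM), the log2 ratio of TTT to CTT tRF_5′ of WT sperm library 2 (-1.29), the TTT tRF_3′ level of KO sperm library 1 (43.4 CPM) and the share of tRNA-Lys in tRF counts of KO sperm library 1 (5.26%).

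In TTT tRF_other, KO against WT had opposite directions in 2 segments of the epididymis: 0.37 on the log2 scale in corpus, where each KO value was above each WT value, and -1.11 in cauda, where each was under. Neither change passed (adjusted p = 0.844 in corpus and 0.195 in cauda, edgeR). In corpus the closest values were 98.47 CPM in KO library 1 and 98.39 CPM in WT library 2. The lowest WT value there, 54.6 CPM, was that of library 3, which KO corpus lacked. The difference between these segments was not tested.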

How the results depend on the processing

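The counts of called members and the tRNA-Lys sums were recomputed under other scalings, with DESeq2, without the filter on low counts, with a replicate block, from the most counted isodecoder alone and without each library in turn. Scaling by TMM factors of RNAs not derived from tRNA or rRNA ("other-RNA scaling"), all alternatives for the segment sums, the shares of the most counted isodecoder alone, and the tissue libraries numbered 1 and 2 alone were added after seeing the data. Other-RNA scaling moved the median of all RNAs in KO against WT from 0.10 to -0.78 in corpus fluid and from 0.12 to -0.31 in cauda epididymis, and scaling by library size moved it from -0.0026 to -0.31 in sperm. The cause of the changes below was not tested. For these alternatives, here and above, the share of all RNAs called was not recorded. Their counts of called members therefore have no background beside them.

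In tissue, the members called in KO against WT cauda numbered 3 with DESeq2, 3 with the replicate block and 0 in a fit of the 2 groups alone. In WT cauda against caput they numbered 3 with DESeq2 size factors, 4 with library size, 6 with other-RNA scaling, 2 with DESeq2, 3 with the replicate block and 3 in libraries 1 and 2 alone. In WT corpus against caput they numbered 1, 2, 1 and 1 with size factors, DESeq2, the replicate block and libraries 1 and 2 alone. In KO against WT cauda, CTT tRF_other passed at an adjusted p below 0.05 with DESeq2 (-0.86) and in libraries 1 and 2 alone (-0.93), and TTT tRF_other with DESeq2 (-1.21) and the replicate block (-1.08), while CTT tRF_3′ was 0.018 in libraries 1 and 2 alone. WT cauda against caput CTT tRF_other was -0.68 (adjusted p = 0.0412) in libraries 1 and 2 alone. The block changed no other call of a sum, and in corpus fluid, WT segments of fluid and sperm the replicate numbers did not pair the samples.

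In KO against WT corpus fluid the called members numbered 1 with library size and 18 with other-RNA scaling. CTT and TTT tRF_other were -1.35 (adjusted p = 0.0635) and -1.42 (adjusted p = 0.0577) with library size. With other-RNA scaling CTT tRF_5′ was -0.49, TTT tRF_5′ -0.65, TTT tRF_3′ -0.85 and CTT tRF_3′ -1.51 (adjusted p = 0.0211), and with DESeq2 TTT tRF_3′ was -0.016. Other-RNA scaling called 2 members in the KO effect of corpus minus cauda fluid. Along WT fluid it gave CTT tRF_5′ 0.090, TTT tRF_5′ -0.67 and CTT tRF_3′ -1.27 in corpus, and TTT tRF_5′ -0.67, CTT tRF_3′ -0.63 and CTT tRF_other 1.18 in cauda. In WT cauda fluid CTT tRF_3′ was -0.90 with DESeq2 and -0.99 from the most counted isodecoder. KO corpus against caput fluid CTT tRF_other was -0.016 with other-RNA scaling. In sperm DESeq2 called 8 members and gave CTT tRF_3′ -2.80 (adjusted p = 0.000915), and TTT tRF_other was -0.24 with library size, -0.17 with other-RNA scaling and -0.065 with DESeq2.

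Leaving out 1 library at a time gave the following ranges. In KO against WT cauda epididymis CTT tRF_5′ ran from -1.52 to 0.093, CTT tRF_3′ from -0.64 to 0.29 and TTT tRF_3′ from -0.99 to 0.19, with the sign turned by WT library 3. Called members ran from 0 to 3 in WT cauda and from 0 to 8 in WT corpus against caput epididymis (8 without WT caput library 3), and from 11 to 18 in KO cauda. In KO against WT corpus fluid they ran from 1 to 11, TTT tRF_5′ from -0.077 to 0.41, TTT tRF_3′ from -0.24 to 0.18, CTT tRF_other from -1.81 to -1.26 and TTT tRF_other from -1.97 to -1.14. In WT cauda against caput fluid called members ran from 3 to 12, TTT tRF_5′ from -1.16 to -0.85, CTT tRF_3′ from -1.17 to -0.80, CTT tRF_other from 0.51 to 1.31 and TTT tRF_other from 1.32 to 2.08. In WT corpus they ran from 8 to 15, TTT tRF_5′ from -1.41 to -0.89, CTT tRF_3′ from -2.07 to -1.50 and CTT tRF_other from 1.10 to 1.72. In KO cauda fluid called members ran from 5 to 10 and in KO corpus from 5 to 8, with CTT tRF_other there from -0.040 to 0.40. In sperm they ran from 0 to 14 (14 without WT library 4), CTT tRF_5′ from -2.37 to -1.68, TTT tRF_5′ from -2.03 to -1.45, CTT tRF_3′ from -3.01 to -2.14, TTT tRF_3′ from -1.30 to 0.10 and TTT tRF_other from -0.16 to 0.16. The sperm ratio of TTT to CTT tRF_3′ ran from 1.82 to 2.49, and with 3 libraries in an arm its exact permutation test cannot go below 0.0571. Depth limits the 4 shallow sperm libraries (1134840 to 3618739 total counts) more than the other 4 (42764979 to 62128314).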
